A study of Mus musculus with 50 samples.

Results

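The 45 genes described here are the Wnt ligands, their Frizzled receptors and co-receptors, the R-spondins and the secreted Wnt antagonists of mouse colon. They were chosen by symbol from a table of 56691 genes: every gene whose symbol starts with Wnt or Fzd followed by a number, Rspo1 to Rspo4, Sfrp1, Sfrp2, Sfrp4, Sfrp5, Frzb, Dkk1 to Dkk3, Wif1, Lrp5 and Lrp6. The rule itself uses no expression value, though it was set with earlier results of these data known. The set holds 19 ligands, 10 Frizzled receptors, 2 co-receptors, 4 R-spondins, 9 antagonists and Fzd10os, a transcript of the strand opposite to Fzd10 that the symbol rule also takes in.

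RNA of the colon (distal colon, per the series text) came from 50 mice of the BALB/c strain, 1 library per mouse and 10 mice per group. Sham mice were compared with mice given TNBS (trinitrobenzene sulfonic acid, a hapten that provokes colitis) together with either vehicle or A1007 at 10, 30 or 90 mpk, the dose unit as the labels print it. The series names the compound YUQ-A1007 and describes it as activating AhR, the aryl hydrocarbon receptor, which binds DNA once a small ligand has entered it. The labels give no genotype other than the strain, no age or sex, and place every mouse in 1 batch. No group received A1007 without TNBS, and the labels do not describe the sham procedure.

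Wnt ligands are secreted lipid-modified proteins that bind a Frizzled receptor. Together with the co-receptor Lrp5 or Lrp6 they stabilise beta-catenin, while other ligands, Wnt5a above all, act through pathways that do not need beta-catenin. R-spondins hold Frizzled receptors at the cell surface by removing the ligases that degrade them. Sfrp proteins, Frzb and Wif1 bind Wnt ligands, and Dkk1 and Dkk2 bind the co-receptors. In the colon the fibroblasts below the crypts make most Wnt ligands and R-spondins, and the stem cells at the crypt base depend on them.

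Libraries held 14373337 to 20446967 counts. In 8 of them RNA of pancreatic acinar genes exceeded 100 CPM (counts scaled to library size), up to 38959.5 CPM in vehicle replicate 6, the others being vehicle replicates 2, 5 and 9, 10 mpk replicate 7, 30 mpk replicate 2 and 90 mpk replicates 2 and 4. Xist fell below 10 CPM in 2 libraries, 10 mpk replicate 6 and 30 mpk replicate 1. Genes of the Y chromosome (Ddx3y, Kdm5d, Uty and Eif2s3y) summed to 0 CPM in both. Counts of called genes are therefore also given without these 8 acinar libraries, a fit in which vehicle keeps 6 mice. Epithelial markers of the colon (Epcam, Cdh1, Krt8, Krt18, Krt20, Vil1 and Cdx1) were detected in every group, with a summed level of 2243 to 3683 FPKM over all mice. Levels are FPKM (fragments per kilobase of exon, divided by library size), which allow genes to be set beside each other. Differences are log2 fold changes from edgeR's quasi-likelihood test on counts. A gene was called higher or lower at a Benjamini-Hochberg adjusted p under 0.05 over the 17928 genes tested. Every adjusted p below is from that test, except where a sentence names another setting or left-out libraries. Those are from that other fit, adjusted over the genes it tested.

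Of the 45 genes, 31 had enough counts to be tested and 14 did not. The 14 were Wnt1, Wnt3, Wnt3a, Wnt7a, Wnt7b, Wnt8a, Wnt8b, Wnt9b, Wnt10a, Wnt10b, Wnt16, Rspo4, Dkk1 and Fzd10os. None of them passed 0.23 FPKM in any mouse, the highest value being of Wnt10b, and Wnt3a had no count in any mouse. Over all 50 mice the median level was highest for the antagonist Dkk3 (17.5 FPKM), the receptor Fzd5 (15.05), the antagonist Sfrp1 (11.05), the receptor Fzd1 (10.55) and the co-receptor Lrp6 (10.44). The ligands stood lower: Wnt5a led them with a median of 2.715 FPKM, followed by Wnt2b with 2.225 and Wnt4 with 1.735. Rspo3 was by far the most abundant R-spondin, at 4.27 FPKM against 0.475 for Rspo1 and 0.175 for Rspo2. The coefficient of variation between mice of a group had a median over the tested genes of 0.189 in sham, 0.306 in vehicle, 0.277 at 10 mpk, 0.218 at 30 mpk and 0.194 at 90 mpk.

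**Figure D1:**
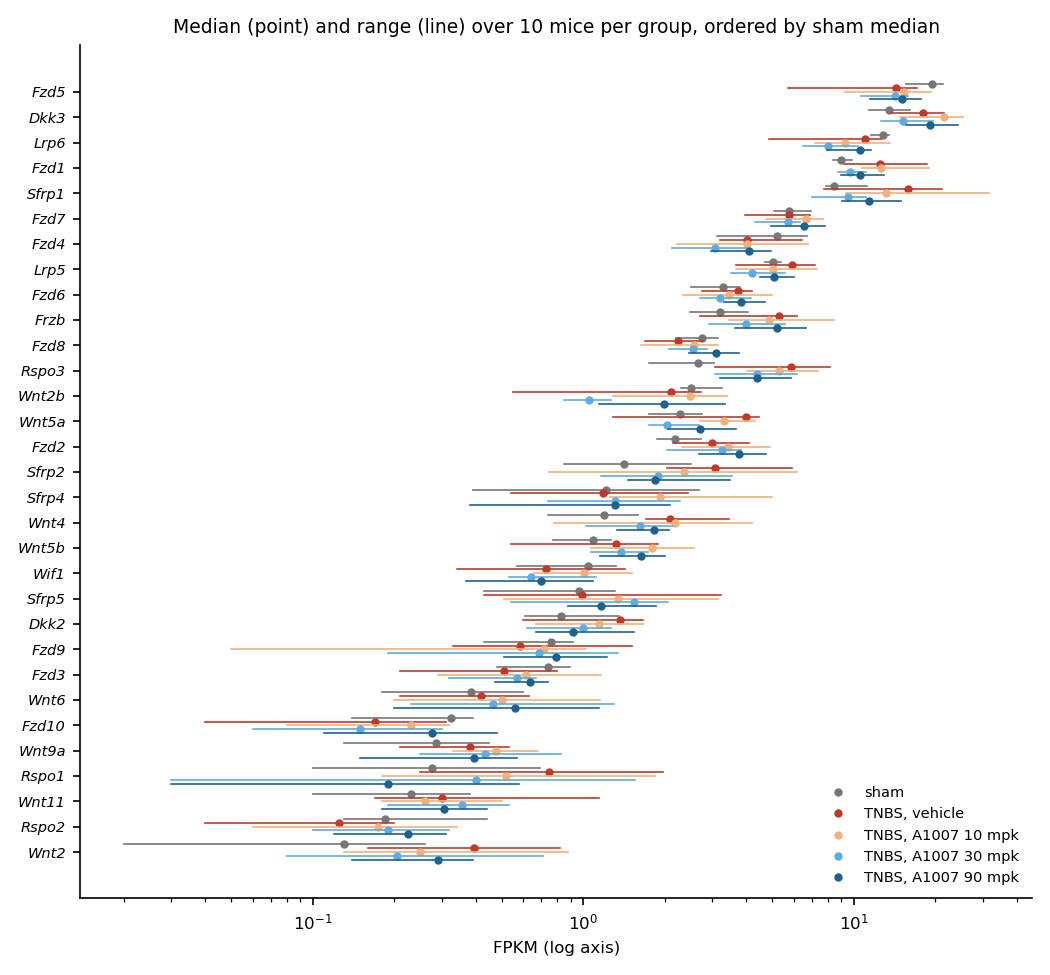
Levels of the 31 tested genes in FPKM on a log axis, as the median (point) and the range (line) over 10 mice for each of 5 groups, ordered by the sham median. Receptors and the antagonists Dkk3 and Sfrp1 fill the upper end, ligands other than Wnt2b and Wnt5a the lower part, and the sham ranges are often the shortest.

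In vehicle mice 13 of the 31 tested genes were higher than in sham mice and 5 were lower, against 31.7% of all genes tested that were called, 18.2% higher and 13.5% lower. The genes that rose were the ligands Wnt2, Wnt4 and Wnt5a, the receptors Fzd1 and Fzd2, the co-receptor Lrp5, the R-spondins Rspo1 and Rspo3, and the antagonists Frzb, Sfrp1, Sfrp2, Dkk2 and Dkk3. Those that fell were Fzd3, Fzd5, Fzd10, Lrp6 and Rspo2. The median log2 fold change was 0.33 over the tested members and 0.02 over all genes. Without the acinar libraries 12 were higher and 2 lower, Fzd3, Fzd10, Rspo1 and Rspo2 no longer being called. With quantile normalization the split was 11 higher and 7 lower.

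The 3 dose comparisons share the same 10 vehicle mice. At 10 mpk none of the 31 genes was called by edgeR, where 5.75% of all genes were. An unadjusted p under 0.05 was reached by 6 of them, DESeq2 called 2 (Sfrp4 and Wnt5b), leaving out 10 mpk replicate 5 gave 4 calls, and the fit without the acinar libraries gave 0. At 30 mpk 8 genes were lower than in vehicle mice and none was higher, against 31.4% of all genes called and 17.9% called lower. These 8 were Wnt2b, Wnt4, Wnt5a, Fzd1, Fzd4, Lrp5, Sfrp1 and Sfrp2. At 90 mpk 5 were lower (Wnt5a, Fzd1, Rspo1, Sfrp1 and Sfrp2) and 2 were higher (Fzd8 and Rspo2), against 18.2% of all genes called, 11.1% lower and 7.12% higher. The median log2 fold change over the tested members was 0.01 at 10 mpk, -0.20 at 30 mpk and 0.01 at 90 mpk, and over all genes it was -0.004, -0.017 and -0.01.

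Without the acinar libraries the counts were 1 higher and 7 lower at 30 mpk, where Wnt4 and Sfrp2 left and Lrp6 (lower) and Sfrp5 (higher) joined. At 90 mpk only Wnt5a (lower) and Fzd8 (higher) were then called. Of all genes the same fit called 22.7% in colitis, 0.158% at 10 mpk, 30.0% at 30 mpk and 3.5% at 90 mpk. With quantile normalization, and likewise with limma on log2 FPKM, 90 mpk gave 2 higher and 3 lower.

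**Figure D2:**
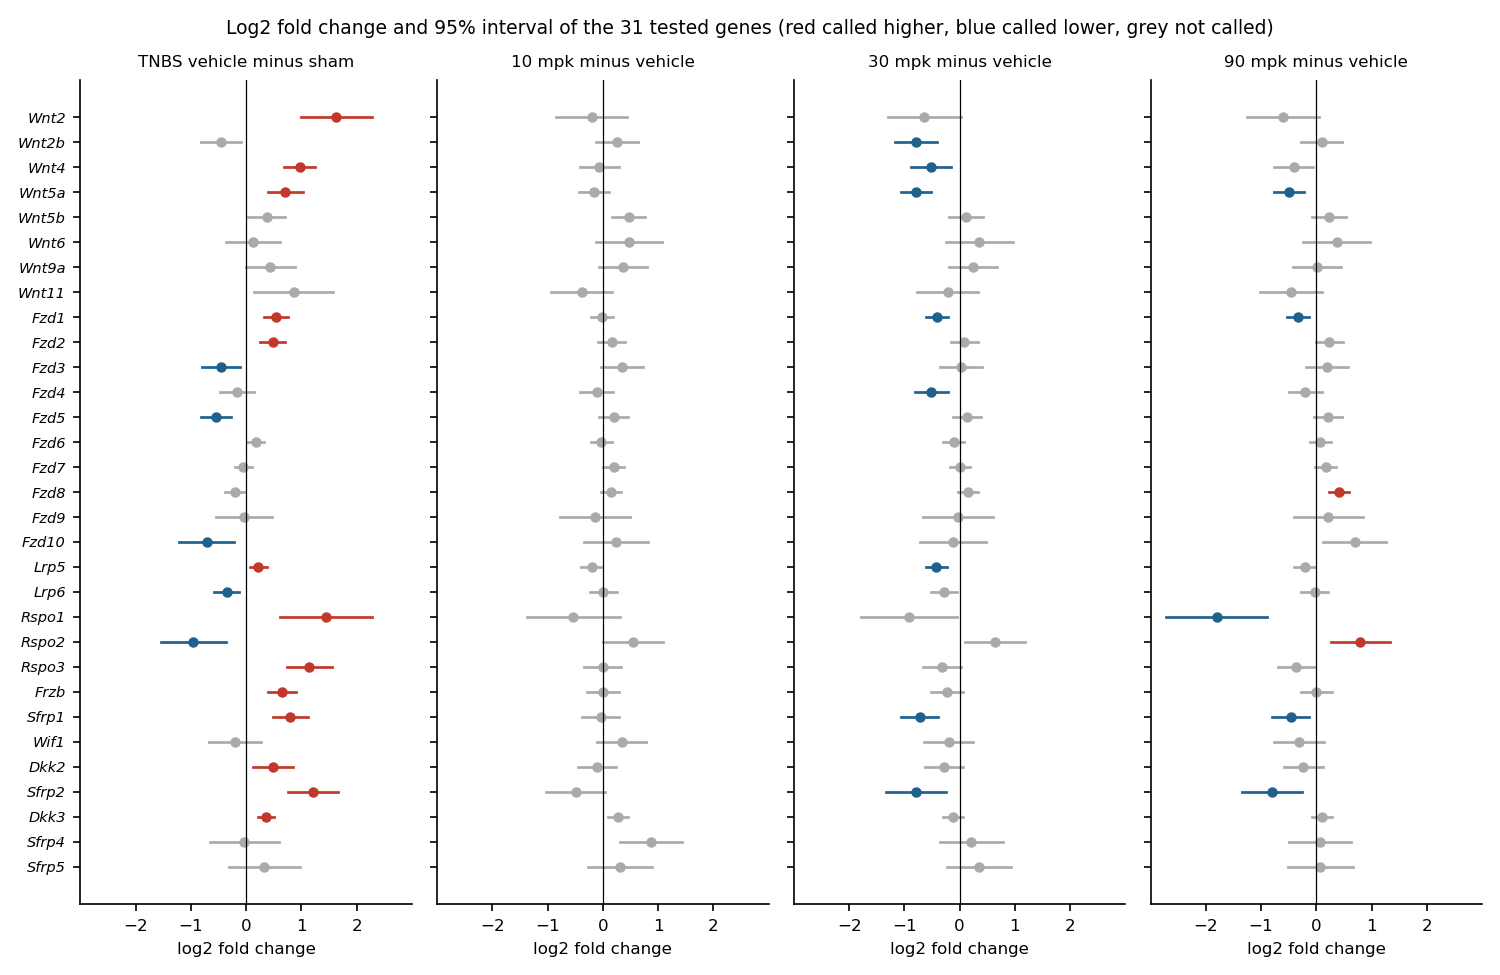
Log2 fold change with its 95% interval for each of the 31 tested genes (rows) in 4 comparisons (panels), red where called higher, blue where called lower and grey where not called. The 8 blue points at 30 mpk and the absence of colour at 10 mpk are the counts given above.

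Promoters of genes that fell at 30 mpk are shown because AhR, the stated target of A1007, binds the core sequence GCGTG. RefSeq promoters of the build GRCm38.p6, which is not the build of the deposited coordinates, gave an entry for 5 of the 8: Wnt2b, Wnt4, Fzd1, Fzd4 and Sfrp2. Over the 250 bases before the start, 4 of these 5 held GCGTG on either strand, Fzd1 being the exception, against 28.2% of all 32851 promoters and 42.2% of the 17890 with at least 51.2% G and C, the lowest content among the 5. Among 14 other tested members with a promoter, 6 held it. The 51.2% is the content of Fzd1, and the 4 promoters with the match had 63.6 to 85.2% G and C. The 42.2% is thus not matched to them in composition, and no excess can be read from it. A match in these letters is a description of the sequence and not a binding site. Capitals mark GCGTG, or CACGC where the match lies on the other strand, and each line reads in the direction of the gene from 250 bases before its start. The lines of Fzd1 and Sfrp2 run to the base before the start. Those of Wnt4 (104 bases) and Fzd4 (239 bases) stop earlier, before an exon of the gene in the GENCODE annotation of the same assembly. For Wnt2b that exon leaves 38 bases, which do not hold its match (92 bases before the start), so its sequence is not shown.
Wnt4 promoter, chr4:137277385-137277488, plus strand: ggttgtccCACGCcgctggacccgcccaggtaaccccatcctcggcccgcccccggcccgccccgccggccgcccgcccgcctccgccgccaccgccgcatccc
Fzd1 promoter, chr5:4758217-4758466, minus strand: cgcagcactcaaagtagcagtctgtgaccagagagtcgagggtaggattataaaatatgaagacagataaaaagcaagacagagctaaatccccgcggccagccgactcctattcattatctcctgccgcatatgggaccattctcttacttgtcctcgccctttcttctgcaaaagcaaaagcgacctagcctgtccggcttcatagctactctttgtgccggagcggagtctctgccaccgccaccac
Fzd4 promoter, chr7:89404116-89404354, plus strand: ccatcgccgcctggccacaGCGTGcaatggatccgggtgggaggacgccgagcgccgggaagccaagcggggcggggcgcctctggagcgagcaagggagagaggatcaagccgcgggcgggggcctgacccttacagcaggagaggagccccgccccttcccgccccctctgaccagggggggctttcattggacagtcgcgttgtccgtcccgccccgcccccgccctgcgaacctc
Sfrp2 promoter, chr3:83766071-83766320, plus strand: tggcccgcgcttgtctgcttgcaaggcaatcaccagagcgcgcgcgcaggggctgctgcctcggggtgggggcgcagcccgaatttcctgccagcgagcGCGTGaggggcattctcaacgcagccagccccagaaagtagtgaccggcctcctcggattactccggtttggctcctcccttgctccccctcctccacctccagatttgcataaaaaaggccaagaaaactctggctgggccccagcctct

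Gene positions are those of the deposited table, on GRCm39. Among the ligands, Wnt5a (chr14:28226707-28249405, plus strand), the main ligand of the beta-catenin-independent branch, rose in colitis and was near the sham level at 30 mpk. It ran from 1.75 to 2.75 FPKM (median 2.275) in sham, 1.29 to 4.48 FPKM (median 3.995) in vehicle, 2.71 to 4.33 FPKM (median 3.325) at 10 mpk, 1.75 to 2.68 FPKM (median 2.045) at 30 mpk and 2.05 to 3.68 FPKM (median 2.7) at 90 mpk. Of the vehicle mice 9 stood above every sham mouse, and replicate 6, the library with the most acinar RNA, was the lowest at 1.29 FPKM. The log2 fold change was 0.71 (SE 0.15, adjusted p = 0.00134) between vehicle and sham, -0.79 (SE 0.14, adjusted p = 4.81e-05) between 30 mpk and vehicle, and -0.50 (SE 0.14, adjusted p = 0.00739) between 90 mpk and vehicle. All 10 mice at 30 mpk lay below all 10 mice at 10 mpk, and that difference was called (log2 change -0.64, SE 0.14, adjusted p = 0.00973). Against sham the 30 mpk group differed by -0.10 (95% interval -0.29 to 0.10, adjusted p = 0.395) and the 90 mpk group by 0.20 (95% interval -0.01 to 0.41, adjusted p = 0.11), neither of which was called.

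Wnt2b (chr3:104852588-104869237, minus strand), a ligand of the beta-catenin branch made by colonic mesenchyme, had another pattern. Sham mice ran from 2.3 to 3.26 FPKM (median 2.505), vehicle mice from 0.55 to 2.72 FPKM (median 2.115), 10 mpk mice from 1.29 to 3.4 FPKM (median 2.48), 30 mpk mice from 0.85 to 1.27 FPKM (median 1.05) and 90 mpk mice from 1.14 to 3.33 FPKM (median 1.985). The 30 mpk mice thus formed a narrow low group, below every sham mouse and every 10 mpk mouse. The fall at 30 mpk was called against vehicle (log2 change -0.79, SE 0.19, adjusted p = 0.0021), against 10 mpk (log2 change -1.04, SE 0.19, adjusted p = 0.00239) and against sham (log2 change -1.25, SE 0.09, adjusted p = 1.99e-09). At 90 mpk the level was back among the vehicle values (log2 fold change against vehicle 0.10, 95% interval -0.28 to 0.47). The difference between 90 and 30 mpk was 0.88 (SE 0.19, adjusted p = 0.0229). That call was lost without 30 mpk replicate 10 or without 90 mpk replicate 2, with adjusted p between 0.057 and 0.0687, and with quantile normalization. Between vehicle and sham Wnt2b missed the threshold (log2 change -0.46, SE 0.17, adjusted p = 0.0517), and 90 mpk mice were lower than sham (log2 change -0.37, SE 0.13, adjusted p = 0.0257), a call lost without sham replicate 8 or 90 mpk replicate 9 (adjusted p between 0.05004 and 0.0521) and with all 50 mice in 1 fit (adjusted p = 0.103).

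Wnt4 (chr4:137004800-137027037, plus strand), a ligand that can act through either branch, rose in colitis without overlap, from 0.74 to 1.59 FPKM (median 1.19) in sham to 1.7 to 3.47 FPKM (median 2.09) in vehicle (log2 change 0.97, SE 0.14, adjusted p = 2.53e-05). It was 1 of 2 members, with Rspo3, whose vehicle values all lay above the sham values, as did those of 2.99% of all genes. The 10 mpk mice ran from 0.78 to 4.19 FPKM (median 2.185), the 30 mpk mice from 1.02 to 2.15 FPKM (median 1.615) and the 90 mpk mice from 1.33 to 2.07 FPKM (median 1.83). The fall at 30 mpk (log2 change -0.52, SE 0.18, adjusted p = 0.0234) was lost without vehicle replicate 2 (adjusted p = 0.0551) and without the acinar libraries (adjusted p = 0.0886). At 90 mpk the change was -0.41 (SE 0.17, adjusted p = 0.0979). Each dose group was called higher than sham, by 0.90, 0.44 and 0.55.

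Wnt2, a ligand of the beta-catenin branch, had the largest fold change of the ligands but rests on few reads, 53 over all sham mice and 158 over all vehicle mice. Its level was 0.02 to 0.26 FPKM (median 0.13) in sham and 0.16 to 0.82 FPKM (median 0.395) in vehicle (log2 change 1.63, SE 0.31, adjusted p = 0.00042), and the ranges overlapped. Levels at 10, 30 and 90 mpk had medians of 0.25, 0.205 and 0.29 FPKM, and no dose comparison with vehicle was called. Wnt5b, a close relative of Wnt5a, had medians of 1.085 FPKM in sham, 1.32 in vehicle, 1.8 at 10 mpk, 1.38 at 30 mpk and 1.635 at 90 mpk. It was called higher than sham at each dose (log2 fold changes 0.84, 0.48 and 0.59) and not in vehicle mice (log2 change 0.37, SE 0.16, adjusted p = 0.0862). The difference between 10 mpk and vehicle, 0.47 (SE 0.15, adjusted p = 0.0561), missed the threshold. The span of Wnt5b overlaps Fbxl14 on the other strand, a gene at a median of 17.02 FPKM, and no source used here gives the strand setting of the counting, so reads of the pair cannot be told apart. The remaining tested ligands, Wnt6, Wnt9a and Wnt11, had medians between 0.23 and 0.56 FPKM in every group and no call between vehicle and sham or between a dose and vehicle.

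Among the Frizzled receptors 2 rose and 3 fell in colitis. Fzd1 (chr5:4803839-4808035, minus strand) ran from 8.41 to 9.89 FPKM (median 8.97) in sham and 9.2 to 18.6 FPKM (median 12.52) in vehicle (log2 change 0.54, SE 0.10, adjusted p = 0.000584), with 9.2 FPKM in vehicle replicate 6 as the only vehicle value inside the sham range. At 10 mpk it ran from 10.7 to 18.94 FPKM (median 12.66), at 30 mpk from 8.78 to 11.1 FPKM (median 9.71) and at 90 mpk from 8.97 to 12.9 FPKM (median 10.57). The 10 mpk mice lay wholly above the sham mice, while the 30 and 90 mpk mice overlapped them. Fzd1 fell at 30 mpk (log2 change -0.40, SE 0.10, adjusted p = 0.00227) and at 90 mpk (log2 change -0.33, SE 0.10, adjusted p = 0.0158). The 90 mpk call was lost with quantile normalization (adjusted p = 0.051) and without the acinar libraries (adjusted p = 0.129). Fzd2 had 1.88 to 2.72 FPKM (median 2.185) in sham and 2.15 to 4.09 FPKM (median 2.98) in vehicle (log2 change 0.48, SE 0.11, adjusted p = 0.00208), and stayed high: its medians were 3.435, 3.265 and 3.765 FPKM at 10, 30 and 90 mpk. Against vehicle the doses changed Fzd2 by 0.16, 0.09 and 0.23, none called, and against sham by 0.64, 0.55 and 0.70, each called.

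Fzd5 (chr1:64769717-64776910, minus strand), a receptor known from the intestinal epithelium, was the most abundant Frizzled gene and fell. Sham mice ran from 15.65 to 21.31 FPKM (median 19.42), vehicle mice from 5.69 to 17.17 FPKM (median 14.38), 10 mpk mice from 9.26 to 19.29 FPKM (median 15.29), 30 mpk mice from 10.65 to 15.88 FPKM (median 14.2) and 90 mpk mice from 11.48 to 17.65 FPKM (median 15.1). Vehicle and sham overlapped in the upper vehicle mice. The difference between vehicle and sham was -0.55 (SE 0.13, adjusted p = 0.00276), or -0.32 without the acinar libraries. No dose changed Fzd5 against vehicle by a called amount (log2 fold changes 0.20, 0.13 and 0.21), and each dose group was called lower than sham (-0.35, -0.43 and -0.35). The summed level of 7 epithelial markers had medians of 3130 FPKM in sham, 2818 in vehicle, 2929 at 10 mpk, 3181 at 30 mpk and 2813 at 90 mpk, and 1 of these markers was called lower in vehicle mice. Its part in the Fzd5 result was not tested.

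Fzd4, which also serves as a receptor for norrin, fell at 30 mpk. It ran from 3.11 to 6.71 FPKM (median 5.225) in sham, 3.21 to 6.42 FPKM (median 4.03) in vehicle, 2.23 to 6.78 FPKM (median 4.015) at 10 mpk, 2.13 to 4.06 FPKM (median 3.06) at 30 mpk and 2.97 to 4.95 FPKM (median 4.085) at 90 mpk. The ranges of all groups overlapped. The fall at 30 mpk was -0.51 (SE 0.15, adjusted p = 0.00898) against vehicle and -0.68 (SE 0.15, adjusted p = 0.000728) against sham, whereas vehicle and sham differed by -0.16 (adjusted p = 0.409). Fzd8 rose at 90 mpk, from 1.69 to 2.78 FPKM (median 2.24) in vehicle to 2.45 to 3.77 FPKM (median 3.09) (log2 change 0.42, SE 0.09, adjusted p = 0.00096), and these ranges overlapped as well. Sham mice had 2.2 to 3.14 FPKM (median 2.75).

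Fzd3, a receptor of planar polarity, fell from 0.48 to 0.89 FPKM (median 0.74) in sham to 0.21 to 0.8 FPKM (median 0.51) in vehicle (log2 change -0.46, SE 0.17, adjusted p = 0.0407). That call was lost when any of 13 single libraries was left out (sham replicates 2, 3 and 5 to 10, vehicle replicates 2, 3, 6, 7 and 8), with adjusted p between 0.0502 and 0.0742. Fzd10 fell from 0.14 to 0.39 FPKM (median 0.325) to 0.04 to 0.31 FPKM (median 0.17) (log2 change -0.72, SE 0.24, adjusted p = 0.0272), and the call was lost without sham replicate 2 (adjusted p = 0.0508). Of the receptors not called in these 4 comparisons, Fzd7 had group medians between 5.71 and 6.64 FPKM and Fzd6 between 3.195 and 3.82 FPKM. Fzd9 had group medians between 0.585 and 0.79 FPKM.

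The co-receptors moved apart in colitis. Lrp6 (chr6:134423439-134543928, minus strand) fell from 11.57 to 13.55 FPKM (median 12.82) in sham to 4.88 to 12.65 FPKM (median 10.97) in vehicle (log2 change -0.35, SE 0.11, adjusted p = 0.0196), and by 0.15 on the log2 scale without the acinar libraries. It ran from 7.21 to 13.6 FPKM (median 9.25) at 10 mpk, 6.48 to 10.36 FPKM (median 8.02) at 30 mpk and 7.95 to 11.55 FPKM (median 10.52) at 90 mpk. All mice at 30 mpk and all mice at 90 mpk lay below all sham mice, with log2 fold changes of -0.65 (SE 0.07, adjusted p = 3.73e-08) and -0.39 (SE 0.06, adjusted p = 3.93e-05). Against vehicle the change at 30 mpk was -0.28 (SE 0.12, adjusted p = 0.0666). Lrp5 rose slightly, from 4.68 to 5.38 FPKM (median 5.025) in sham to 3.67 to 7.19 FPKM (median 5.93) in vehicle (log2 change 0.22, SE 0.07, adjusted p = 0.0307). The rise of Lrp5 was lost when any of 9 single libraries was left out (sham replicates 1, 2, 3, 8 and 9, vehicle replicates 2, 5, 7 and 10), with adjusted p between 0.0515 and 0.0647. At 30 mpk Lrp5 ran from 3.51 to 5.58 FPKM (median 4.195) and was called lower than vehicle (log2 change -0.42, SE 0.09, adjusted p = 0.000985) and lower than sham (log2 change -0.21, SE 0.06, adjusted p = 0.00589). Each of the 2 co-receptors was thus below sham at 30 mpk.

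**Figure D3:**
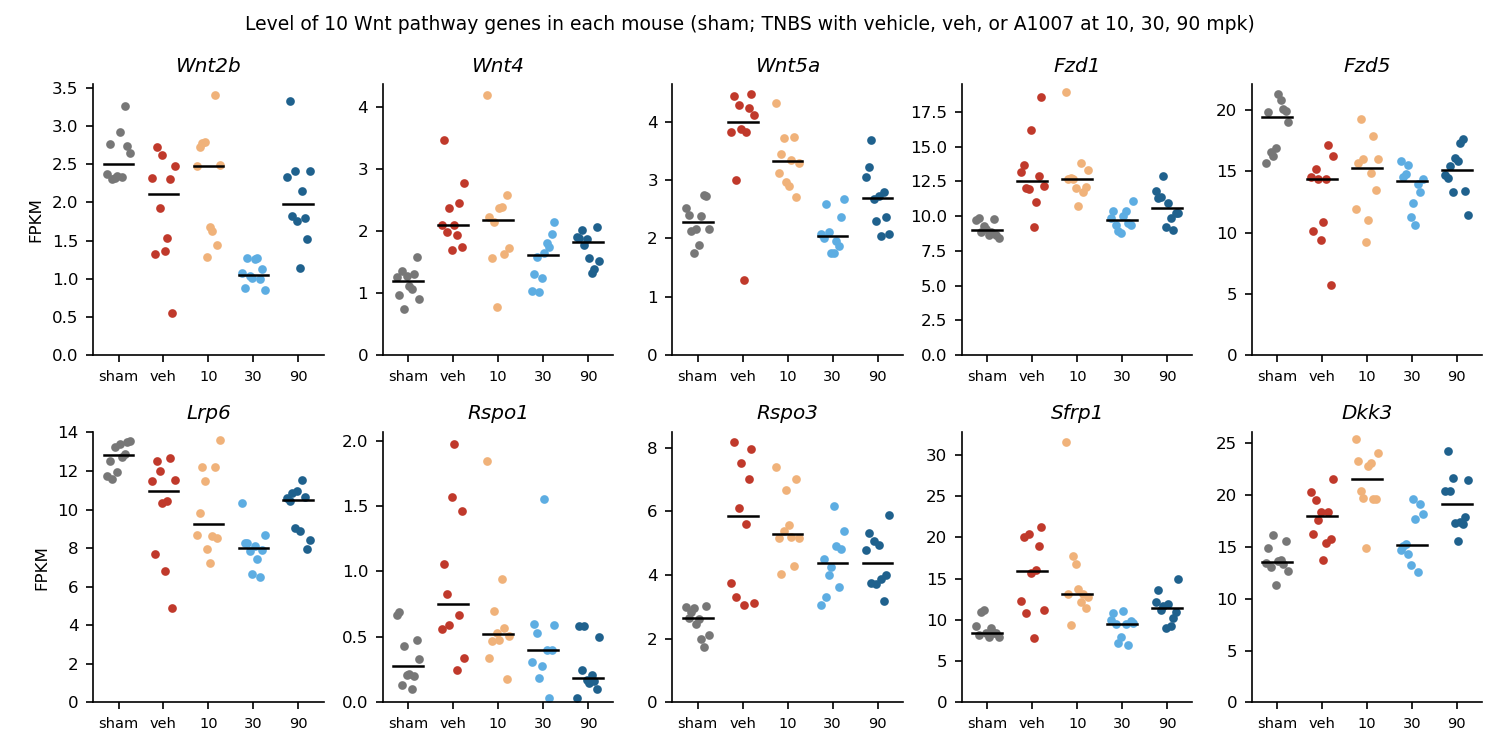
FPKM of 10 genes in each of 50 mice, on linear axes from 0, by group (sham, TNBS with vehicle (veh), and TNBS with A1007 at 10, 30 and 90 mpk); each point is a mouse and each bar a group median. Wnt2b forms a narrow low group at 30 mpk, Rspo3 lies above sham in every TNBS group, Fzd5 and Lrp6 have medians below sham in every TNBS group, and 1 mouse at 10 mpk stands far above the rest of its group for Wnt4, Fzd1, Rspo1 and Sfrp1.

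Rspo3 (chr10:29328412-29411863, minus strand), a main R-spondin of the colon stroma, rose in colitis, and each TNBS mouse, with or without A1007, stood above each sham mouse. Sham mice ran from 1.75 to 3.04 FPKM (median 2.645), vehicle mice from 3.07 to 8.18 FPKM (median 5.845), 10 mpk mice from 4.02 to 7.4 FPKM (median 5.29), 30 mpk mice from 3.06 to 6.17 FPKM (median 4.385) and 90 mpk mice from 3.19 to 5.88 FPKM (median 4.385). The highest sham value was thus just below the lowest vehicle, 30 mpk and 90 mpk values, and further below the lowest 10 mpk value. Rspo3 differed from sham by 1.14 (SE 0.19, adjusted p = 0.000155) in vehicle mice, 1.14 (SE 0.12, adjusted p = 8.51e-07) at 10 mpk, 0.82 (SE 0.12, adjusted p = 7.70e-06) at 30 mpk and 0.78 (SE 0.11, adjusted p = 1.17e-05) at 90 mpk. Against vehicle the changes were -0.01, -0.31 and -0.36, with 95% intervals of -0.34 to 0.33, -0.65 to 0.03 and -0.70 to -0.02, and none was called. The vehicle mice spread widely, with replicates 1, 3, 6 and 10 between 3.07 and 3.76 FPKM and the other 6 between 5.59 and 8.18 FPKM.

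Rspo1 (chr4:124880223-124902892, plus strand) and Rspo2 rest on few reads, 121 and 227 over all sham mice. Rspo1 had 0.1 to 0.69 FPKM (median 0.275) in sham, 0.25 to 1.97 FPKM (median 0.75) in vehicle, 0.18 to 1.84 FPKM (median 0.52) at 10 mpk, 0.03 to 1.55 FPKM (median 0.4) at 30 mpk and 0.03 to 0.58 FPKM (median 0.19) at 90 mpk. All groups overlapped. It rose in vehicle mice (log2 change 1.45, SE 0.40, adjusted p = 0.00868) and fell at 90 mpk (log2 change -1.81, SE 0.45, adjusted p = 0.00432). Neither call held without the acinar libraries, where the changes were 0.59 (adjusted p = 0.284) and -1.45 (adjusted p = 0.113). Markers of mesothelium (Msln, Upk3b, Wt1, Lrrn4 and Bnc1), the cell layer on the outer gut surface, moved in the same direction. Their summed level was 0.81 to 4.61 FPKM in sham (median 2.14), 1.67 to 12.37 in vehicle (median 5.96), 2.2 to 6.35 at 10 mpk (median 2.78), 0.58 to 4.54 at 30 mpk (median 1.75) and 0.44 to 2.96 at 90 mpk (median 1.095). Of the 5 markers, 2 were called higher in vehicle mice, 4 lower at 30 mpk and 5 lower at 90 mpk (without the acinar libraries 1, 1 and 5), and their part in the Rspo1 values was not tested. In such bulk tissue fewer cells of a type and less RNA per cell cannot be told apart, here and for each gene below.

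Rspo2 moved the other way. It had 0.13 to 0.44 FPKM (median 0.185) in sham, 0.04 to 0.2 FPKM (median 0.125) in vehicle and 0.12 to 0.31 FPKM (median 0.225) at 90 mpk, with a fall in colitis (log2 change -0.95, SE 0.28, adjusted p = 0.014) and a rise at 90 mpk (log2 change 0.80, SE 0.26, adjusted p = 0.0295). The fall was lost without the acinar libraries (adjusted p = 0.0755). The rise was lost when any of 6 single libraries was left out (vehicle replicates 5, 6 and 7, 90 mpk replicates 4, 5 and 9), with adjusted p between 0.0541 and 0.061, and without the acinar libraries (adjusted p = 0.23).

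Of the 8 tested antagonists 5 rose in colitis and none fell. Sfrp1 (chr8:23901518-23939648, plus strand), which binds Wnt ligands outside the cell, ran from 7.89 to 11.19 FPKM (median 8.44) in sham, 7.79 to 21.2 FPKM (median 15.89) in vehicle, 9.38 to 31.55 FPKM (median 13.14) at 10 mpk, 6.98 to 11.13 FPKM (median 9.55) at 30 mpk and 9.04 to 14.94 FPKM (median 11.43) at 90 mpk. The 30 mpk mice covered about the sham range, and the 10 mpk maximum was 1 mouse, replicate 1. Sfrp1 changed by 0.80 (SE 0.15, adjusted p = 0.000495) in colitis and by -0.72 (SE 0.17, adjusted p = 0.00134) at 30 mpk against vehicle, and the 30 mpk group differed from sham by 0.07 (95% interval -0.11 to 0.24). At 90 mpk it was called lower than vehicle (log2 change -0.46, SE 0.17, adjusted p = 0.0453) and higher than sham (log2 change 0.33, SE 0.08, adjusted p = 0.00209), the latter lost with all 50 mice in 1 fit (adjusted p = 0.101). The 90 mpk call against vehicle was lost when any of 14 single libraries was left out (vehicle replicates 2, 4, 5, 7, 8 and 9, 90 mpk replicates 1 and 3 to 9), with adjusted p between 0.0546 and 0.107.

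Sfrp2, of the same family, had 0.85 to 2.51 FPKM (median 1.415) in sham, 2.04 to 5.9 FPKM (median 3.07) in vehicle, 0.75 to 6.19 FPKM (median 2.36) at 10 mpk, 1.16 to 3.56 FPKM (median 1.895) at 30 mpk and 1.46 to 3.48 FPKM (median 1.835) at 90 mpk. Vehicle overlapped sham and each dose group. It rose in colitis (log2 change 1.21, SE 0.22, adjusted p = 0.000295) and fell at 30 mpk (log2 change -0.80, SE 0.27, adjusted p = 0.022) and 90 mpk (log2 change -0.80, SE 0.27, adjusted p = 0.0311). The 30 mpk call was lost without vehicle replicate 6 (adjusted p = 0.0517) and without the acinar libraries (adjusted p = 0.2). The 90 mpk call was lost without any of vehicle replicates 4, 5 and 6 or 90 mpk replicates 7 and 9 (adjusted p between 0.0518 and 0.0747), and without the acinar libraries (adjusted p = 0.264).

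Frzb, a further relative of the Sfrp proteins, rose from 2.49 to 4.07 FPKM (median 3.19) in sham to 2.71 to 6.17 FPKM (median 5.28) in vehicle (log2 change 0.65, SE 0.12, adjusted p = 0.000327). Its medians at 10, 30 and 90 mpk were 4.845, 4 and 5.205 FPKM, none of them called different from vehicle, and each dose group was called higher than sham (0.65, 0.41 and 0.65). Dkk3 (chr7:111715224-111758264, minus strand), a divergent member of the Dkk family, rose from 11.37 to 16.12 FPKM (median 13.52) in sham to 13.76 to 21.54 FPKM (median 17.98) in vehicle (log2 change 0.36, SE 0.07, adjusted p = 0.000525). Its 10 mpk mice were the highest group, at 14.86 to 25.41 FPKM (median 21.59), with 12.6 to 19.59 FPKM (median 15.18) at 30 mpk and 15.61 to 24.29 FPKM (median 19.13) at 90 mpk. The 10 mpk difference from vehicle was 0.27 (SE 0.09, adjusted p = 0.0659), and the difference between 30 and 10 mpk was -0.38 (SE 0.09, adjusted p = 0.0202), the latter lost without 30 mpk replicate 8 (adjusted p = 0.0513). Dkk2, which binds the co-receptors, rose from 0.61 to 1.35 FPKM (median 0.83) to 0.6 to 1.67 FPKM (median 1.365) (log2 change 0.48, SE 0.17, adjusted p = 0.0399). The rise of Dkk2 was lost when any of 13 single libraries was left out (sham replicates 1, 3, 4, 6, 7, 8 and 10, vehicle replicates 1 to 5 and 10), with adjusted p between 0.0535 and 0.0783.

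The other antagonists tested, Wif1, Sfrp4 and Sfrp5, were not called between vehicle and sham or between a dose and vehicle. Sfrp4 had the largest difference at 10 mpk, with 0.54 to 2.43 FPKM (median 1.18) in vehicle and 1.26 to 4.98 FPKM (median 1.915) at 10 mpk (log2 change 0.88, SE 0.28, adjusted p = 0.0518), which missed the threshold. It was called by DESeq2 and with all 50 mice in 1 fit.

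Markers of several cell types moved between the same groups. The summed level of 6 fibroblast markers (Pdgfra, Col1a1, Col1a2, Dcn, Lum and Col6a1) was 122.8 to 202.4 FPKM in sham, 356.99 to 792.8 in vehicle, 379.6 to 872.6 at 10 mpk, 209.4 to 389.5 at 30 mpk and 200.9 to 364.6 at 90 mpk. All 6 were called higher in vehicle mice than in sham mice, 0 were called at 10 mpk, and 5 were called lower than vehicle at 30 mpk and at 90 mpk (4 and 3 without the acinar libraries). Among 6 markers of the Pdgfra-high fibroblasts below the epithelium (telocytes), 4 were higher and 1 lower in vehicle mice, 4 were lower at 30 mpk and 2 were lower at 90 mpk (3 and 0 without the acinar libraries). Their summed level was 27.55 to 37.42 FPKM in sham, 34.48 to 96.63 in vehicle, 29.12 to 73.46 at 10 mpk, 32.71 to 50.44 at 30 mpk and 34.18 to 46.26 at 90 mpk. Another fibroblast list, of 6 markers of trophocytes and adventitial cells, had 4 higher and 1 lower in vehicle mice, and at 30 and at 90 mpk 1 of them, Grem1, was lower than vehicle. Its summed level was 62.61 to 82.8 FPKM in sham, 102.03 to 285.9 in vehicle, 109.4 to 210.4 at 10 mpk, 94.16 to 131.9 at 30 mpk and 74.18 to 160.6 at 90 mpk. Of 7 smooth muscle markers none was called between vehicle and sham, and 1, 3 and 2 were higher than vehicle at 10, 30 and 90 mpk. Without the acinar libraries 2 (Acta2 and Actg2) were higher in vehicle than in sham mice. That fit called 0, 2 and 0 higher than vehicle at the 3 doses. At each dose 6 of the 7 were higher than sham, with or without those libraries.

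Markers of white blood cells changed more. All 5 neutrophil markers were higher in vehicle mice, with summed levels of 1.16 to 3.79 FPKM in sham and 13.09 to 6348 in vehicle. Of these 5, 4 were lower than vehicle at 10 mpk and all 5 at 30 mpk (2.94 to 40.87 FPKM) and at 90 mpk (2.67 to 24.57 FPKM). All 5 macrophage markers were higher in vehicle mice (40.1 to 55.04 FPKM in sham, 79.24 to 179.9 in vehicle), and 2, 4 and 5 of them were lower than vehicle at 10, 30 and 90 mpk. None of either list was called at 10 mpk without the acinar libraries. The part of all these markers in the Wnt5a, Wnt4, Fzd1, Sfrp1 and Sfrp2 results was not tested.

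Tested between doses, the set differed most between 30 and 10 mpk, where 5 genes were lower at 30 mpk and none higher: Wnt2b, Wnt5a, Fzd1, Sfrp1 and Dkk3. Over all genes 2.01% were called and 1.55% were called lower. The same 5 genes were called lower without the acinar libraries, where 6.27% of all genes were called. For Wnt2b and Wnt5a the 30 mpk and 10 mpk mice did not overlap, as was so, in the lower direction, for 0.0892% of all genes. Fzd1 changed by -0.39 (SE 0.10, adjusted p = 0.0303) and Sfrp1 by -0.68 (SE 0.17, adjusted p = 0.0234). The Fzd1 call was lost without 10 mpk replicate 1 or 30 mpk replicates 4, 5 or 8 (adjusted p between 0.0535 and 0.0776), and the Sfrp1 call without 10 mpk replicate 1 or 30 mpk replicates 4 or 8 (adjusted p between 0.0513 and 0.072). Between 90 and 10 mpk edgeR called 0 members and 0.1% of all genes, 8 members had an unadjusted p under 0.05, and DESeq2 called 0. The fit without the acinar libraries called Fzd1 and 1.23% of all genes. Between 90 and 30 mpk Wnt2b was the only member called, against 0.368% of all genes called and 0.0948% called higher. It was also the only member called without the acinar libraries, where 0.678% of all genes were called.

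The comparisons with sham share the same sham mice. At 10 mpk 13 members were higher and 2 lower than in sham mice (of all genes 36.0% were called, 21.3% higher and 14.7% lower). At 30 mpk 11 were higher and 8 lower (59.0%, 30.3% and 28.7%), and at 90 mpk 12 were higher and 5 lower (45.2%, 23.4% and 21.9%). Without the acinar libraries the members higher and lower were 12 and 2 at 10 mpk, 10 and 8 at 30 mpk, and 10 and 4 at 90 mpk. Of all genes that fit called 30.5%, 57% and 38.3% at 10, 30 and 90 mpk against sham. Values without overlap were found at 10 mpk for Fzd1 and Rspo3 (higher, as for 2.12% of all genes), at 30 mpk for Rspo3 (higher, 5.08%) and for Wnt2b and Lrp6 (lower, 4.81%), and at 90 mpk for Rspo3 (higher, 1.96%) and Lrp6 (lower, 1.43%).

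Other genes of the pathway were followed in 6 lists, which overlap. Lgr5, Rnf43, Znrf3, Notum, Apcdd1, Tcf7 and Lef1 stand in the list of target genes and in another list, so their calls count in each. Their counts are read beside the shares of all genes called: 31.7% in colitis (18.2% higher, 13.5% lower), 31.4% at 30 mpk (13.5% higher, 17.9% lower) and 18.2% at 90 mpk (7.12% higher, 11.1% lower). Of 9 tested genes for Wnt secretion, processing and inactivation, 3 were higher and none lower in vehicle mice. Sulf2 and Sulf1, sulfatases that trim heparan sulfate chains outside the cell, rose by 1.60 (SE 0.13, adjusted p = 3.57e-08) and 1.07 (SE 0.16, adjusted p = 4.64e-05). Sulf1 ran from 1.69 to 2.68 FPKM (median 2.01) in sham to 2.56 to 7.58 FPKM (median 4.335) in vehicle. At 30 and at 90 mpk 4 of the 9 were lower than vehicle and none higher, and without the acinar libraries 4 and 2. Sulf2 fell by 0.96 on the log2 scale at 30 mpk and by 0.85 at 90 mpk. Tmed5, a protein of the early secretory pathway, fell by 0.55 and 0.57, the latter no longer called without the acinar libraries (adjusted p = 0.0622). Of 7 tested further antagonists 3 were higher in vehicle mice, led by Grem1, a blocker of BMP ligands (log2 change 2.92, SE 0.30, adjusted p = 9.16e-07), and Igfbp4 (log2 change 2.25, SE 0.24, adjusted p = 1.13e-06). Grem1 and Igfbp4 were lower at 30 mpk (log2 fold changes -1.47 and -0.99) and at 90 mpk (-1.51 and -1.20), and Nog was higher at 30 mpk (0.63). Neither fall of Igfbp4 was called without the acinar libraries (adjusted p = 0.16 and 0.133), while those of Grem1 and the rise of Nog were.

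Of 9 tested genes for receptor turnover and R-spondin reception, 2 were higher and 4 lower in vehicle mice, 1 higher and 2 lower at 30 mpk, and 3 higher and 1 lower at 90 mpk. Adgra2, a partner of Reck in Wnt7 signalling, rose (log2 change 0.94, SE 0.11, adjusted p = 2.25e-06), while the receptor ligases Rnf43 (log2 change -0.53, SE 0.09, adjusted p = 0.000235) and Znrf3 (log2 change -0.44, SE 0.10, adjusted p = 0.00133) fell, as did Tspan12 (-0.58). Adgra2 was lower again at 30 mpk (-0.58) and at 90 mpk (-0.42), and Rnf43 was higher at 90 mpk (0.31). Reck was the only gene of this list called at 10 mpk (log2 change 0.53, SE 0.12, adjusted p = 0.0116). With the acinar libraries left out 1 was higher and 4 lower in vehicle mice, 2 were lower at 30 mpk and none was called at 10 or 90 mpk.

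Inside the cell, of the 29 tested genes of the beta-catenin cascade 1 was higher and 4 lower in vehicle mice, 3 higher and 6 lower at 30 mpk, and 2 higher and 2 lower at 90 mpk. Without the acinar libraries 2 were higher and 4 lower in vehicle mice, 4 higher and 7 lower at 30 mpk, and none was called at 90 mpk. The largest of the named changes in vehicle mice was that of the co-repressor Tle4 (log2 change -0.48, SE 0.12, adjusted p = 0.00435), with Tle1 (-0.26), Apc (-0.30) and Dvl2 (-0.21) also lower. Dvl2, a relay protein below the receptors, was higher than vehicle at 30 mpk (log2 change 0.43, SE 0.08, adjusted p = 0.000109) and 90 mpk (log2 change 0.24, SE 0.08, adjusted p = 0.0282). Of 19 tested receptors and polarity genes of the beta-catenin-independent branch, 6 were higher and 2 lower in vehicle mice, 1 higher and 7 lower at 30 mpk, and 1 higher and 2 lower at 90 mpk. With those libraries left out 9 were higher and 1 lower in vehicle mice, 1 higher and 7 lower at 30 mpk, and 1 higher and none lower at 90 mpk. Ptk7, a pseudokinase receptor, rose in vehicle mice (log2 change 0.82, SE 0.10, adjusted p = 2.53e-06) and was lower at 30 mpk (-0.45) and 90 mpk (-0.39). Prickle1, a core polarity protein, was lower at 30 mpk (log2 change -0.52, SE 0.13, adjusted p = 0.00242) and 90 mpk (-0.42). Mcc was higher at both doses (0.35 and 0.52). Of these calls, the one of Ptk7 at 90 mpk and both of Prickle1 were lost without the acinar libraries.

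Of 19 tested Wnt target genes 2 were higher and 5 lower in vehicle mice, 5 higher and 3 lower at 30 mpk, and 7 higher and 1 lower at 90 mpk. Leaving out the acinar libraries gave the same counts in vehicle mice, while 2 were higher and 3 lower at 30 mpk, and none was higher and 1 lower at 90 mpk. Axin2, a direct target and feedback inhibitor, ran from 6.91 to 8.47 FPKM (median 7.85) in sham, 2.21 to 5.73 FPKM (median 4.505) in vehicle, 3.71 to 7.22 FPKM (median 5.205) at 10 mpk, 4.12 to 7.57 FPKM (median 5.36) at 30 mpk and 5.67 to 7.19 FPKM (median 6.555) at 90 mpk. All vehicle mice lay below all sham mice, as was so for 1.08% of all genes (log2 change -0.82, SE 0.11, adjusted p = 1.28e-05), and Axin2 was higher than vehicle at 30 mpk (0.36, adjusted p = 0.0181) and 90 mpk (0.53, adjusted p = 0.00147). Lgr5, the R-spondin receptor of crypt stem cells, had medians of 1 FPKM in sham, 1.005 in vehicle, 1.235 at 10 mpk, 1.185 at 30 mpk and 1.36 at 90 mpk, and was called higher than vehicle at 30 mpk (0.47) and 90 mpk (0.55). None of these dose calls held without the acinar libraries: Axin2 changed by 0.185 and 0.35 (adjusted p = 0.278 and 0.121), and Lgr5 by 0.14 and 0.26 (adjusted p = 0.533 and 0.363). The fall of Axin2 in vehicle mice was called there too (-0.65, adjusted p = 4.24e-06). In vehicle mice Rspo3, 3 ligands and 5 antagonists were higher. Of the targets, Cd44 and Smoc2 were higher (log2 changes 0.62 and 0.69 without the acinar libraries). The targets Axin2, Rnf43, Znrf3, Sox9 and Ascl2 (log2 fold change -0.97) were lower. At 10 mpk 2 targets, Cd44 (-0.53) and Myc (-0.36), were lower than vehicle and none was higher, and neither was called without the acinar libraries.

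**Figure D4:**
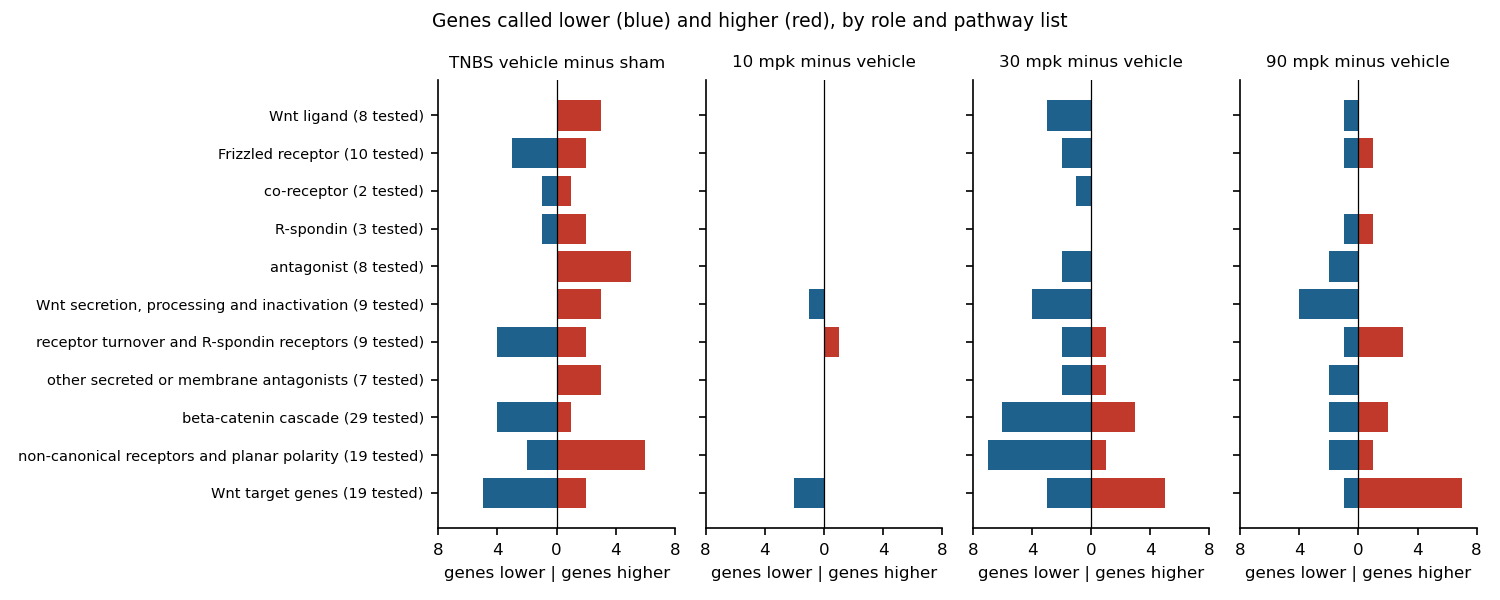
Number of genes called higher (red, to the right) and lower (blue, to the left) for 5 roles among the members and 6 lists of other pathway genes, in 4 comparisons (panels). Antagonists have 5 higher calls in colitis and 2 lower calls at 30 and at 90 mpk. The target list shares genes with other lists. Target genes have 2 higher and 5 lower calls in colitis and 7 higher calls at 90 mpk. Without the acinar libraries 0 of those 7 remain. The lower antagonist calls at 90 mpk, Sfrp1 and Sfrp2, are then lost too, as is Sfrp2 at 30 mpk, where Sfrp5 joins as higher.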

How the data were processed

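Poly(A) RNA libraries of colon from 50 mice were grouped by their titles into 5 groups of 10. The table deposited by the authors gives, for every gene, raw counts and FPKM in each mouse on the build GRCm39. The submitters' processing notes name cutadapt 1.9.1, HISAT2 2.2.1, HTSeq 0.6.1 and DESeq2, without role or order, and no strand setting. FPKM was checked against counts and the deposited exon lengths: 99.997% of values with at least 500 counts lay within 1%. No libraries were identical (highest correlation 0.9936).

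Counts were tested in R 4.3.3 with edgeR 4.0.16 (glmQLFit and glmQLFTest, robust, TMM, filterByExpr with a count minimum of 10), leaving 17928 genes. Comparisons with sham used the 20 mice of the pair of groups, and those between TNBS groups the 40 TNBS mice. Intervals are at 95%. Alternatives were RLE and quantile scaling, DESeq2 1.42.0, limma 3.58.1 (log2 FPKM, pseudocounts 0.1 and 1), no filter, other sets of mice, a replicate block and each library left out. Leaving out libraries with over 100 CPM of acinar genes or under 10 CPM of Xist was chosen after seeing the data. The scripts were tested on simulated data.

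The genes, lists and naming rule were chosen with earlier results of these data known. Full values go to members called between vehicle and sham or between a dose and vehicle. Uncalled members with a median of at least 2 FPKM are given by their levels. Each list names up to 4 called genes by smallest p in colitis and up to 3 per dose, with Axin2 and Lgr5 always. Tiki1, a listed gene, matched no symbol. Promoters are RefSeq's, build GRCm38.p6, and 29 members had an entry. P-values measure the spread between these mice.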

Additional observations from a re-analysis of the deposited data

Results flagged for a closer look

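Within a group of 10 mice, 1 mouse was called outlying for a gene when its gap to the nearest other mouse divided by the group's whole range passed Dixon's 95% critical value. Over 115 sets of a gene and a group 12 passed, and chance passes about 1 in 20. In 10 mpk replicate 1 this held for Wnt4 (4.19 FPKM), Fzd1 (18.94 FPKM), Rspo1 (1.84 FPKM), Frzb (8.46 FPKM), Sfrp1 (31.55 FPKM) and Sfrp2 (6.19 FPKM), each as the highest value of its group. In vehicle mice it held for Wnt2 in replicate 2 (0.82 FPKM, highest) and Wnt5a in replicate 6 (1.29 FPKM, lowest). At 30 mpk it held for Wnt2 in replicate 10 (0.71 FPKM, highest), Fzd2 in replicate 1 (2.04 FPKM, lowest) and Rspo1 in replicate 6 (1.55 FPKM, highest), and at 90 mpk for Sfrp2 in replicate 4 (3.48 FPKM, highest).

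Tested directly between doses, 5 genes were lower at 30 than at 10 mpk: Wnt2b by a log2 fold change of -1.04, Sfrp1 by -0.68, Wnt5a by -0.635, Fzd1 by -0.39 and Dkk3 by -0.38. Wnt2b was higher at 90 than at 30 mpk, by 0.88.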

How the results depend on the processing

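No call of a member between 2 groups reversed under any setting run. Between 10 mpk and vehicle, where the test gave 0 members, DESeq2 gave 2, all 50 mice in 1 fit gave 3, the replicate block gave 1, and leaving out single libraries gave 0 to 4. Between 90 mpk and vehicle (7 members) leaving out the acinar libraries gave 2 and single libraries 4 to 7, with 4 without vehicle replicate 5 or without 90 mpk replicate 9. Between 30 and 10 mpk (5 members) no filter gave 3 and single libraries 2 to 6. Between 90 and 10 mpk (0 members) leaving out the acinar libraries gave 1, Fzd1, and single libraries 0. Between 90 and 30 mpk (1 member) quantile normalization gave 0, a fit of only these groups gave 4, and single libraries gave 0 to 1. Between 90 mpk and sham (17 members) all 50 mice in 1 fit gave 10 and single libraries 14 to 18. Single libraries gave 15 to 20 between vehicle and sham (18 members), 8 to 10 between 30 mpk and vehicle (8), 13 to 17 between 10 mpk and sham (15) and 15 to 19 between 30 mpk and sham (19). The causes were not tested.

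Replicate numbers were not taken to pair the mice: deviations of same-numbered mice correlated above 0.1 in 1 of 10 pairs between vehicle and sham (median -0.11), and between vehicle and 10, 30 and 90 mpk in 6, 5 and 5 of 10 (medians 0.28, 0.03 and 0.08), and 1, 3, 1 and 3 mice correlated best with their own number. With the replicate block 12 members were higher and 2 lower in vehicle than in sham mice, 8 were lower at 30 mpk, and 2 were higher and 4 lower at 90 mpk. Apart from the count at 10 mpk the block moved no total of calls by more than 1.5 times, though the lower calls went from 5 to 2 between vehicle and sham and from 5 to 3 between 90 mpk and sham. Genes with few reads (Wnt2, Rspo1, Rspo2, Fzd10) limit what this depth can show, and the 14 genes without a test were not comparable at it.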
